A study of Mus musculus with 15 samples.

Results

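Lad1, Serpine2, Cables1, Syt6 and Utf1 were followed across 15 bulk RNA libraries of mouse CD8+ T cells. They are 5 of the 17493 genes in the count tables, taken by symbol. They were selected on these data: Lad1 for its difference between dendritic cells at 8 h and no stimulus, Serpine2 for that difference at 8 h and 22 h, and Cables1 for it at 22 h. Syt6 was selected on the difference between both stimuli at 22 h, and Utf1 on that between immunofilaments at 8 h and no stimulus. Values from comparisons that share a library with those are therefore given as a description, without a p-value. Only 10 tests of the 5 genes used other libraries, and those carry an adjusted p. All T cells were OT-I cells of the strain C57BL/6-Tg(TcraTcrb)1100Mjb/Crl, whose transgenic receptor recognises an ovalbumin peptide on MHC class I. Their source was the spleen and lymph nodes of mice, all female, whose age is not given in the sources used here. Each of 5 groups has 3 libraries: unstimulated cells at 0 h, and cells held for 8 h or 22 h with 1 of 2 stimuli. No group was held for 8 h or 22 h without a stimulus. A stimulus and time in culture therefore cannot be told apart in comparisons with unstimulated cells. Immunofilaments (IF) are synthetic filaments, here carrying SIIT-peptide MHC and interleukin-2, at 5 ng/ml. Dendritic cells (DC) were Flt-3 ligand cells pulsed with SIITFEKL peptide, 20000 to a well of 50000 T cells, and the labels name no interleukin-2 for them. Sorting on viability, CD8 and absence of CD103 followed the culture, so T cells were separated from the DC only by that gate. The titles number the libraries of each group Don1 to Don3 and do not say whether a number is the same source in every group. Beyond those titles the labels name no separate animals or cultures, so p-values measure the spread between these libraries, which may be technical.

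When a CD8+ T cell meets its antigen, receptor signals switch on NF-kB, AP-1 and NFAT, and within hours the cell changes its adhesion, secretion and growth programme. A dendritic cell adds costimulatory ligands and cytokines to the peptide and MHC that a synthetic scaffold presents. The 5 genes come from unrelated families and are better known outside T cells. Lad1 encodes ladinin, an anchoring filament protein of epithelial basement membranes. Serpine2 encodes protease nexin 1, a secreted inhibitor of thrombin, urokinase and plasmin. Syt6 is a synaptotagmin, a membrane protein of regulated exocytosis studied mostly in neurons and sperm. Cables1 links cyclin-dependent kinases to the Abl kinase and restrains the cell cycle. Utf1 is a chromatin-bound transcription factor of pluripotent stem cells.

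Total counts per library ran from 2892874 to 19806730, and 11427 to 13591 genes had at least 1 count. Values below are normalised read counts (CPM, from edgeR), scaled by TMM, a trimmed mean that corrects for library composition. IF 22 h replicates 2 and 3 stood apart, with 0.179% and 0.146% of counts in mitochondrial rRNA, against 1.82% to 4.49% in all other libraries. All 9 T cell markers with a row in the tables had counts in every library, and summed to 8871 to 9603 CPM without stimulus and 4045 to 6435 CPM with a stimulus. Of those, Cd3e lay between 474 and 1696 CPM and Cd8a between 419 and 999 CPM. The 5 epithelial markers, read here because ladinin is epithelial, summed to at most 6.81 CPM. Neutrophil and erythroid markers summed to 5.60 to 22.3 and 13.6 to 33.3 CPM without stimulus, and to at most 2.64 and 0.44 CPM with one. Fibroblast and stromal markers summed to 2129 to 2309 CPM without stimulus and 708 to 1318 CPM with one, nearly all of it Thy1, which T cells also express. Endothelial markers summed to 83.7 to 180 CPM, nearly all Pecam1, which leukocytes also express. CD4 T cell, macrophage, NK cell and B cell markers reached at most 3.98, 15.6, 25.7 and 34.5 CPM. The part of other cell types in the comparisons with no stimulus was not tested.

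The promoters of Lad1, Serpine2 and Syt6 are shown because these 3 genes had the widest gaps between DC and IF, and because the gene most like Lad1 below is a subunit of NF-kB. The sequences are from RefSeq (GRCm38.p6), 5′ to 3′ on the gene's strand, and end at or just before the RefSeq start. Bases that the GENCODE annotation places in an exon were left out, 31 for Serpine2 and 14 for Syt6. Capitals mark the letters GGGNNNNNCC, a loose NF-kB motif searched on both strands. The Lad1 stretch is chr1:135818348-135818597 on the plus strand, 250 bases. The Serpine2 stretch is chr1:79858697-79858915 on the minus strand, 219 bases, and lies inside the GENCODE gene, whose outermost start is farther upstream. The Syt6 stretch is chr3:103574995-103575230 on the plus strand, 236 bases, the first of its RefSeq starts.
Lad1: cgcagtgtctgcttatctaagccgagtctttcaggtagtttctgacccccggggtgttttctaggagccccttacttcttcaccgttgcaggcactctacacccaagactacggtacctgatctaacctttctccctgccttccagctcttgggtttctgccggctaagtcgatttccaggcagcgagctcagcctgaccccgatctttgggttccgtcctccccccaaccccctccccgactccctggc
Serpine2: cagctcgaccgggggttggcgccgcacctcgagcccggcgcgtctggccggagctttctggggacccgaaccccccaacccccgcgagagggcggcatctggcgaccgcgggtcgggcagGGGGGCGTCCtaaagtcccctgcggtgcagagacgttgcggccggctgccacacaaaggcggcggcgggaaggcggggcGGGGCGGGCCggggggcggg
Syt6: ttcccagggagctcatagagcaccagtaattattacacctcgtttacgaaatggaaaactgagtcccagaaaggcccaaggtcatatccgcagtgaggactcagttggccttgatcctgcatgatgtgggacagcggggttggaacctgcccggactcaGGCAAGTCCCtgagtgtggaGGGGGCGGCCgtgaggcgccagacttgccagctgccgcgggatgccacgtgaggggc
The Lad1 stretch held none of these letters. Serpine2 and Syt6 held 2 each, of which 1 in each overlapped the GC-box letters GGGCGG. The motif is common: 45.4% of 26994 RefSeq windows of 250 bases upstream of a start hold it, and 32.9% hold the GC-box. The stricter AP-1 letters TGANTCA, in 6.87% of windows, were in none of the 3. G and C made up 57.6% of the Lad1 stretch, 77.6% of the Serpine2 stretch and 58.9% of the Syt6 stretch, against a median of 52% over all windows. These matches describe letters only, and absent letters say nothing of what binds there.

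Lad1 was higher with both stimuli, and stayed high at 22 h only with DC. The gene lies at chr1:135818598-135833342 on the plus strand and shares no exonic base with another gene in GENCODE. In unstimulated cells the 3 libraries held 5.87, 4.70 and 7.91 CPM. At IF 8 h they held 149, 78.2 and 125 CPM, and at DC 8 h 208, 430 and 206 CPM. No stimulated library at 8 h came near the unstimulated ones, and every DC library lay above every IF library. At 22 h the IF libraries were back at 11.9, 18.0 and 24.7 CPM, while the DC libraries held 138, 225 and 102 CPM. The lowest DC library at 22 h was thus above the highest IF library. This comparison used other libraries than the one Lad1 was chosen by. Replicate numbers went together between DC 8 h and DC 22 h, however (r from 0.116 to 0.399). Those libraries may share sources, so the p that follows may not be independent of the choice. IF was 8.53-fold lower than DC at 22 h (means 18.2 ± 6.38 and 155 ± 63.3 CPM, SD, n = 3 each), a log2 difference of -3.08 ± 0.38 (SE), with adjusted p = 0.000378 in edgeR's quasi-likelihood test. In that comparison 1.20% of all 10831 genes tested were called lower and 1.23% higher. The call held without each library in turn and under every other processing tried, with adjusted p up to 0.0235. The fall within IF was also called. Lad1 was 6.44-fold lower at IF 22 h than at IF 8 h, with log2 difference -2.68 ± 0.37 (SE) and adjusted p = 0.00468 by edgeR, where 1.12% of all genes were called in either direction. Without IF 22 h replicates 2 and 3, the libraries that stood apart, the difference was -3.30 and the adjusted p 0.268, with 1 library left in that group. Within DC the log2 difference from 8 h to 22 h was -0.86 ± 0.34 (SE). It was -0.41 without DC 8 h replicate 2, -1.20 without DC 22 h replicate 2 and -0.75 without both. Those DC groups overlapped, but each replicate number was lower at 22 h. In order of mean level Lad1 ran DC 8 h, DC 22 h, IF 8 h, IF 22 h, unstimulated. The first 2 neighbouring pairs in that order overlapped, and the last 2 did not. In bulk RNA a gene expressed by fewer cells and a gene with less RNA in each cell cannot be told apart, here or for the genes that follow.

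Serpine2 was found mainly with DC, and its level there depended on the library more than for any other of the 5 genes. It lies at chr1:79794197-79861180 on the minus strand and shares no exonic base with another gene. Unstimulated cells held 4 counts in replicate 1 and none in replicates 2 and 3, so the group mean was 0.196 CPM, near the limit of 0.180 CPM that 3 counts over the group would give. IF 8 h held 2.50, 1.33 and 0.268 CPM, and IF 22 h held 1.55, 1.55 and 2.55 CPM. Every IF library held some Serpine2, but no IF library passed 3 CPM. DC 8 h held 9.21, 36.1 and 3.67 CPM, and DC 22 h held 5.12, 24.6 and 2.48 CPM. At 8 h every DC library was above every IF library, although the lowest DC and the highest IF value were close. At 22 h the groups overlapped, because DC replicate 3 lay just under IF replicate 3. The log2 difference of IF minus DC was -3.48 ± 1.00 (SE) at 8 h and -2.46 ± 0.89 (SE) at 22 h. Both rested largely on replicate 2: without it the difference was -2.17 at 8 h and -0.98 at 22 h. Within IF the level did not differ by a called amount from 8 h to 22 h: the log2 difference was 0.41 (95% confidence interval -1.74 to 2.56), with adjusted p = 0.897 by edgeR. That interval is wide enough to hold a change of either sign, and without IF 8 h replicate 3 the difference was -0.046. Without IF 22 h replicates 2 and 3 it was 0.098. The DC difference between 8 h and 22 h was -0.61 ± 0.82 (SE), and each replicate number was lower at 22 h. It turned to 0.72 without DC 8 h replicate 2, which leaves its partner in, and was -0.74 without both DC replicates 2. All neighbours in the order DC 8 h, DC 22 h, IF 22 h, IF 8 h, unstimulated overlapped.

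Syt6 was nearly absent from unstimulated and IF cells and present in all DC libraries. It lies at chr3:103575231-103645569 on the plus strand. A gene on the other strand, Atg4a-ps, labelled protein-coding in GENCODE, shares 505 exonic bases with the 3′ end of Syt6. The tables hold no row of that name, and the use of strand is not given in the sources used here, so reads of either could be counted as Syt6. Unstimulated cells held no Syt6 count in any of 3 libraries, which allows up to 0.180 CPM over the group. IF 8 h held 1.25, 0 and 0 CPM, from 7 counts in all, and IF 22 h held 0, 0.956 and 0.306 CPM, from 14 counts. DC 8 h held 3.96, 1.37 and 6.31 CPM, and DC 22 h held 5.58, 4.65 and 17.9 CPM. No IF library reached the lowest DC library of its time. With its counts pooled, Syt6 was at least 20.9-fold higher at DC 8 h, and at least 56.4-fold higher at DC 22 h, than the limit in unstimulated cells. DC 8 h against no stimulus was not what Syt6 was chosen by, and edgeR gave it adjusted p = 0.0179. Syt6 passed the filter on low counts only through the DC libraries, so that it had to be higher there, and this p is no independent support. In that comparison 2.75% of all genes were called higher and 4.07% lower. It missed the threshold without any 1 of the unstimulated libraries, with adjusted p = 0.0650, 0.0617 and 0.0525 without replicates 1, 2 and 3, although none of them held a count. IF 8 h against no stimulus was not called (adjusted p = 0.215 by edgeR), where 3.04% of genes were higher and 4.72% lower. IF was below DC at 8 h, with a fitted log2 difference of -2.89 ± 1.12 (SE), 95% confidence interval -5.29 to -0.49, and an unadjusted p = 0.0217. The size rests on 7 counts of 1 IF library, and without IF 8 h replicate 1 the fitted difference was -7.98 against a group at 0, which is no bound. Adjusted over all genes by edgeR the p became 0.460, with the same limit from the filter, in a comparison where 0.434% of genes were called lower and 0.231% higher. At 22 h, where Syt6 was selected, the log2 difference was -4.48 ± 1.07 (SE). It was -3.59 without DC 22 h replicate 3 and -5.51 without IF 22 h replicate 2. Without IF 22 h replicates 2 and 3, the only ones of their group with counts, it was -9.06 against a group at 0, which is no bound. Syt6 was higher at DC 22 h than at DC 8 h in each replicate number, by 1.28 ± 0.90 (SE) on the log2 scale, while those groups overlapped. That difference was 0.40 without DC 22 h replicate 3 and 1.81 without DC 8 h replicate 3. IF 22 h and IF 8 h could not be ordered: the log2 difference was -0.31 ± 1.23 (SE), but leaving out IF 22 h replicate 1 gave 0.20. Leaving out IF 8 h replicate 1, the only library of its group with counts, gave 4.78.

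Cables1 was higher with both stimuli at 8 h, where their libraries overlapped, and was highest with DC at 22 h. It lies at chr18:11839220-11945630 on the plus strand. Its exons share 1314 bases with the antisense gene Gm6277, which had 42 counts over all libraries, and 78 bases with Mir1901. Unstimulated cells held 0, 0 and 1.16 CPM. IF 8 h held 6.60, 11.3 and 8.84 CPM, and DC 8 h held 10.4, 18.3 and 7.05 CPM. Both stimulated groups were clear of the unstimulated libraries and overlapped each other. This comparison was not what Cables1 was chosen by: IF minus DC at 8 h was -0.44 ± 0.61 (SE) on the log2 scale, 95% confidence interval -1.72 to 0.85, with adjusted p = 0.953 by edgeR. Without DC 8 h replicate 2 the difference was 0.0043, so its sign rested on that library. At 22 h the IF libraries held 6.90, 7.05 and 6.53 CPM, the group with the smallest spread relative to its mean among groups with counts of the 5 genes, with a mean of 6.83 ± 0.267 CPM (SD, n = 3). The DC libraries at 22 h held 19.5, 56.7 and 9.57 CPM, all above the IF libraries but 5.93-fold apart. The log2 difference of IF minus DC at 22 h was -2.06 ± 0.60 (SE), and -1.09 without DC 22 h replicate 2. Within IF the difference between 22 h and 8 h was -0.37 ± 0.61 (SE), with adjusted p = 0.832 by edgeR. Within DC, Cables1 was higher at 22 h in each replicate number, by 1.26 ± 0.58 (SE), while the groups overlapped. That difference was 0.31 without DC 22 h replicate 2, 1.70 without DC 8 h replicate 2 and 0.75 without both. The order was DC 22 h, DC 8 h, IF 8 h, IF 22 h and unstimulated, and only the last step separated its neighbours.

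Utf1 was higher with both stimuli at both times, and no gap between IF and DC was called at 22 h. The gene is short, lies at chr7:139943789-139945112 on the plus strand, and has a single annotated transcript. Unstimulated cells held 1.47, 1.08 and 0 CPM. IF 8 h held 21.9, 18.2 and 19.8 CPM, an even group, and DC 8 h held 22.0, 58.5 and 27.7 CPM. All 6 libraries at 8 h were above all unstimulated libraries, and the lowest DC library was a hair above the highest IF library. IF 22 h held 12.4, 11.5 and 16.9 CPM, and DC 22 h held 9.10, 21.7 and 8.03 CPM. The DC libraries at 22 h lay on both sides of the IF libraries. IF minus DC at 22 h was tested with other libraries than Utf1 was chosen by, and gave 0.08 ± 0.45 (SE) on the log2 scale, 95% confidence interval -0.86 to 1.03, with adjusted p = 0.961 by edgeR. The sign turned to -0.051 when libraries were scaled by their totals alone, to -0.061 without IF 22 h replicates 2 and 3 together, and to between -0.17 and -0.11 without DC 22 h replicate 1 or 3 or IF 22 h replicate 3. Without DC 22 h replicate 2 the difference was 0.67. From DC 8 h to DC 22 h Utf1 was lower in each replicate number and the groups did not overlap, with a log2 difference of -1.48 ± 0.45 (SE). That difference was not called without regard to replicate number (adjusted p = 0.206 by edgeR), where 0.480% of genes were called in either direction. A fit of the DC libraries alone gave -1.49 with adjusted p = 0.468 without a block, and -1.50 with adjusted p = 0.0116 with the replicate number as a block. Those fits called 0 and 166 genes. In all 15 libraries the block gave adjusted p = 0.203 for Utf1, and 49 genes called against 52 without it. In the order DC 8 h, IF 8 h, IF 22 h, DC 22 h, unstimulated, IF 22 h and DC 22 h were the only neighbours that overlapped, and DC 22 h also reached into the range of IF 8 h.

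**Figure D1:**
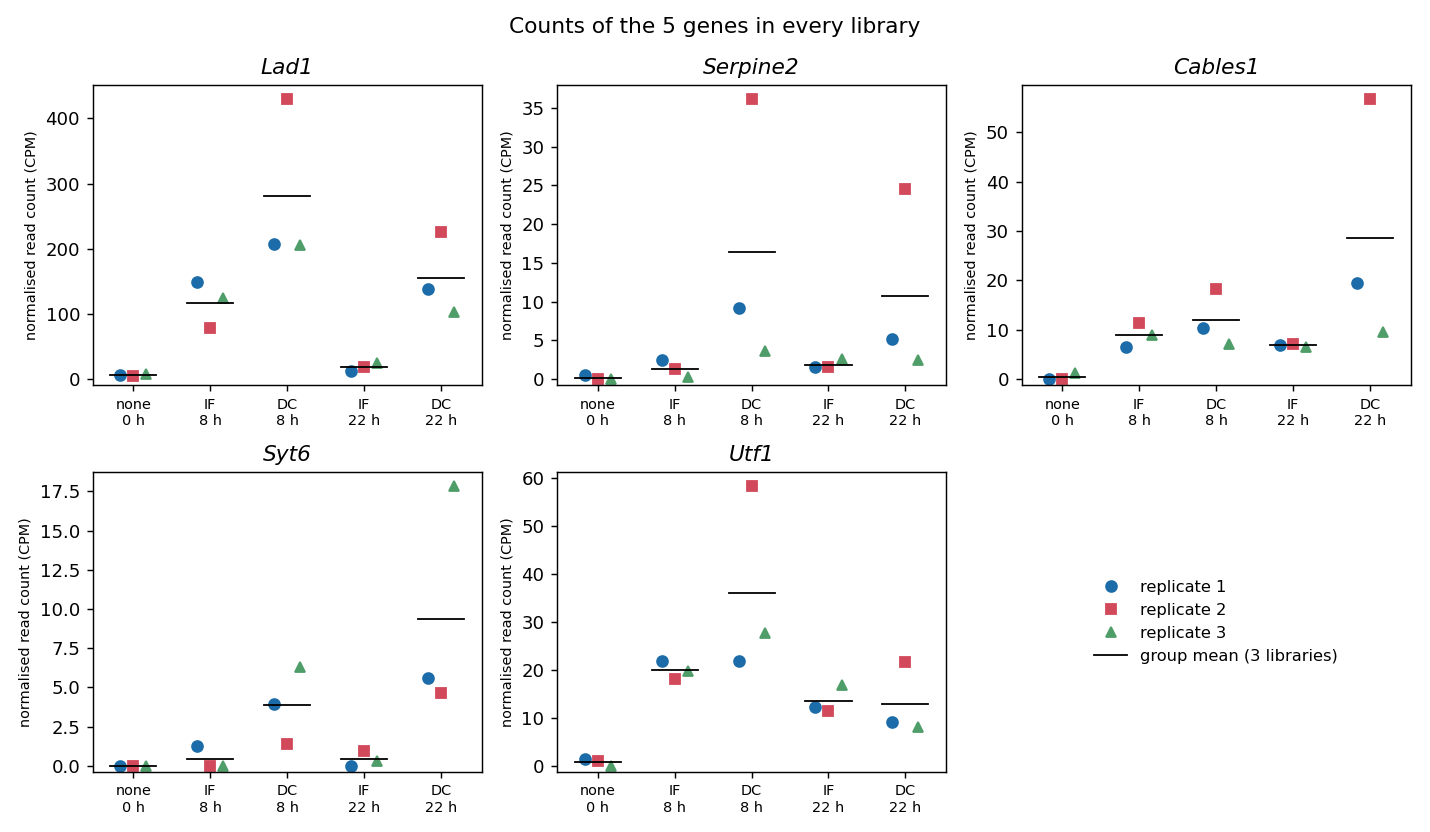
Normalised read count in CPM (vertical axes, each gene on its own scale) in every library of the 5 groups, with symbols for replicates 1 to 3 and a line at the mean of 3 libraries. Lad1, Cables1 and Utf1 are above the unstimulated libraries with both stimuli, while IF libraries stay at or below 2.55 CPM for Serpine2 and 1.25 CPM for Syt6.

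Set side by side at 8 h, the genes fell into a pair found mainly with DC, Serpine2 and Syt6, and 3 found with both stimuli, Lad1, Cables1 and Utf1. The split was less clear at 22 h. The log2 difference of IF minus DC was then -3.08 for Lad1, without overlap, and -2.46 for Serpine2, with overlap. Without DC 22 h replicate 2 the Serpine2 difference was -0.98. With DC all 5 genes were above every unstimulated library at 8 h and at 22 h. At DC 22 h 3.41% of all genes were called higher and 4.35% lower. With IF at 8 h, 3 of 5 were above every unstimulated library: Lad1 by 4.27 ± 0.42 (SE), Cables1 by 4.75 ± 0.92 and Utf1 by 4.41 ± 0.61 on the log2 scale. The Cables1 value rests on 5 counts in unstimulated replicate 3, and without that library it was 9.17 at IF 8 h and 8.82 at IF 22 h. Serpine2 overlapped, at 2.56 ± 1.42 (SE), and at 6.55 without unstimulated replicate 1, the only library of that group with counts. Fitted values against a group with no counts depend on the prior count and are no bound. Syt6 overlapped too. At IF 22 h, 4 of 5 were above, the exception being Syt6, in a comparison where 2.63% of genes were called higher and 3.44% lower. Lad1 had dropped there to 1.59 ± 0.40 (SE) over the unstimulated level, and to 0.97 in replicate 1 alone, while Cables1 held 4.38 ± 0.91 and Utf1 3.85 ± 0.60. The gaps between IF and DC at 8 h lay in the same direction for all 5 genes, and 4 of 5 did not overlap. Of all genes tested, 7.70% lay wholly lower with IF at 8 h and 5.80% wholly higher. At 22 h the groups did not overlap for 3 of 5, Lad1, Cables1 and Syt6, beside 9.11% of all genes wholly lower with IF and 10.7% wholly higher. All comparisons with no stimulus use the same 3 unstimulated libraries, and the genes were picked partly by these contrasts, so these counts describe the choice. Of all genes, 14.2% at 8 h and 15.7% at 22 h lay wholly above the unstimulated libraries with IF, and 13.0% and 12.8% with DC. The change of the IF-DC gap from 8 h to 22 h was not tested. As a value it was -1.82 ± 0.50 (SE) on the log2 scale for Lad1, -1.63 ± 0.84 for Cables1 and -1.59 ± 1.56 for Syt6, with IF further below DC at 22 h. It was 1.02 ± 1.31 for Serpine2 and 0.93 ± 0.63 for Utf1, with a smaller gap at 22 h.

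**Figure D2:**
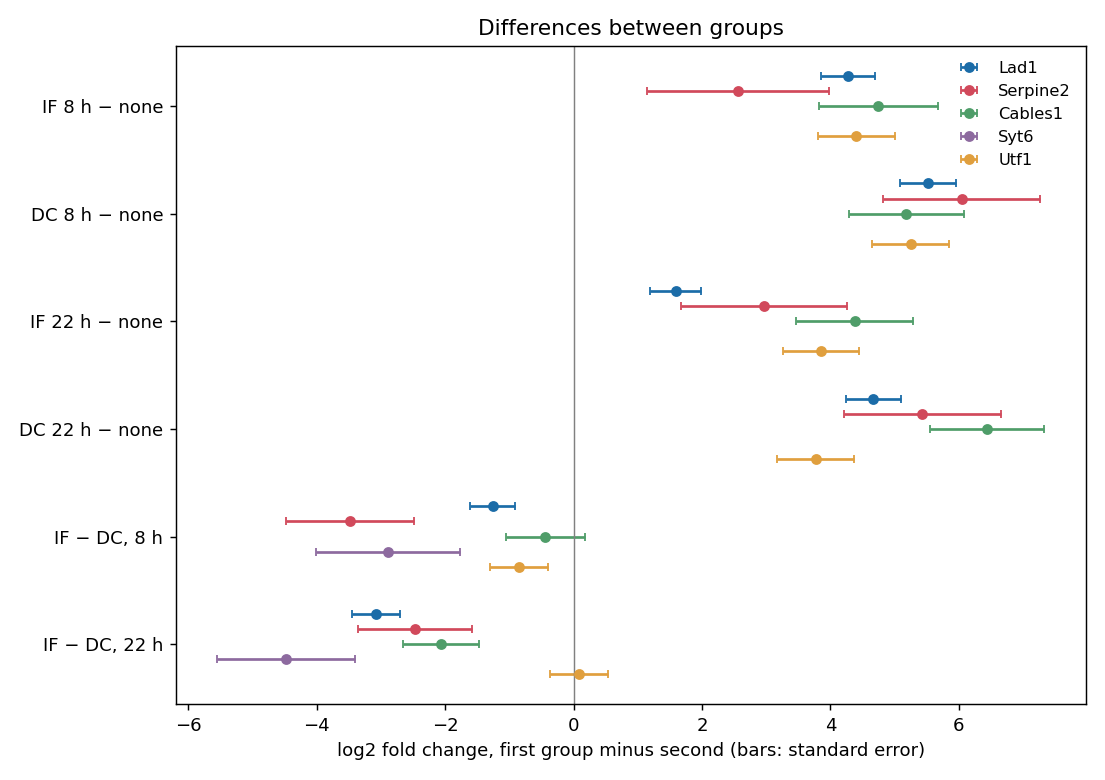
Log2 fold changes (horizontal axis, first group minus second) of the 5 genes in 6 comparisons of 3 against 3 libraries, with bars of 1 standard error. Syt6 is left out against unstimulated cells, where it has no count. The IF-DC difference at 22 h runs from -4.48 for Syt6 to 0.08 for Utf1.

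The single DC libraries differed in a way that split the genes. DC replicate 2 was the highest library of its group for Lad1, Serpine2, Cables1 and Utf1, at 8 h and again at 22 h. Against the mean of the other two libraries it was 2.08-fold at 8 h and 1.88-fold at 22 h for Lad1, and 2.35-fold and 2.53-fold for Utf1. For Cables1 the ratios were 2.09 and 3.91, and for Serpine2 they were 5.61 and 6.46. Syt6 ran the other way: replicate 2 was its lowest DC library, at 0.266 and 0.396 of the mean of the others, and replicate 3 its highest, at 2.37 and 3.49. Replicate 2 held 7729279 counts in all at 8 h and 8185466 at 22 h, and the cause of its differing values was not tested. Being highest in replicate 2 was common among all genes. Of 8264 genes with a mean of at least 5 CPM, 26.5% were highest in replicate 2 in both DC groups, against 17.5% in replicate 3 and 7.74% in replicate 1. A ratio above 1.5 in both was rarer, at 8.62% for replicate 2, 2.38% for replicate 3 and 0.726% for replicate 1. Among the IF libraries, replicate 2 was the highest for Cables1 at 8 h and 22 h and for Syt6 at 22 h, and the lowest for Lad1 at 8 h and for Utf1 at both times. Without both DC replicates 2, the called gap in Lad1 between IF and DC at 22 h was still called. Other gaps, given without a test, were smaller in that setting. At 22 h the log2 difference of IF minus DC went from -2.46 to -0.99 for Serpine2 and from -2.06 to -1.09 for Cables1. At 8 h it went from -3.48 to -2.17 for Serpine2, from -1.26 to -0.81 for Lad1 and from -0.85 to -0.30 for Utf1. For Syt6, lowest in replicate 2, it went from -4.48 to -4.82 at 22 h.

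**Figure D3:**
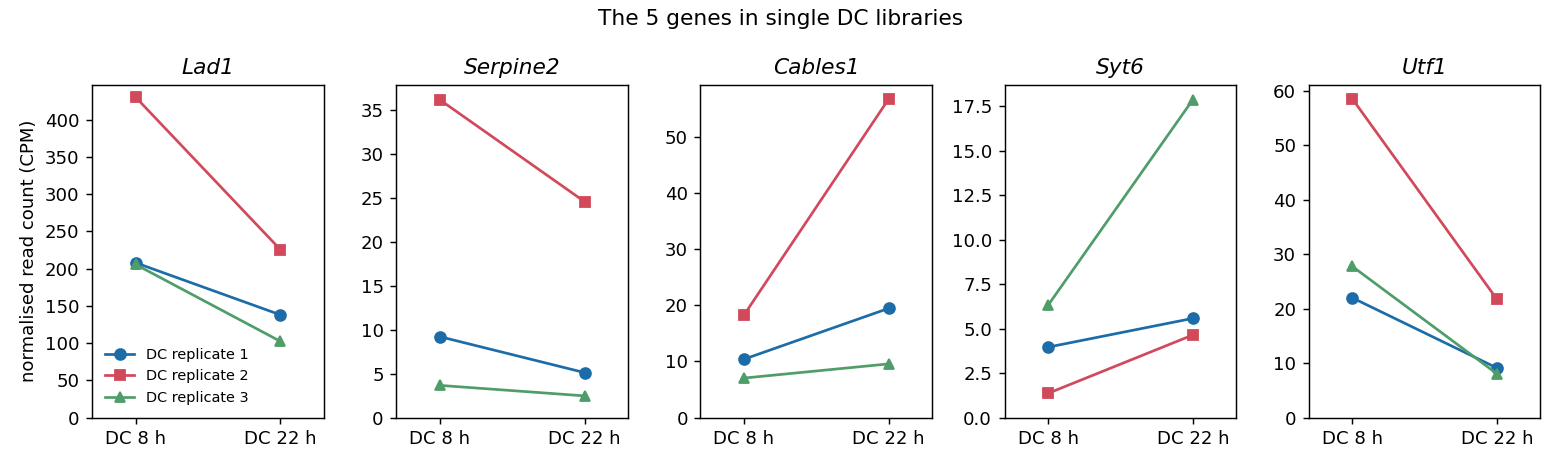
Normalised read count in CPM (vertical axes, each gene on its own scale) of the 5 genes in the 6 DC libraries, with lines joining the same replicate number at 8 h and 22 h. Replicate 2 is the highest for Lad1, Serpine2, Cables1 and Utf1 and the lowest for Syt6, and all 3 lines fall for Lad1, Serpine2 and Utf1 and climb for Cables1 and Syt6.

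Some genes of dendritic cells moved with the DC groups too, and others did not. All 27 genes of the dendritic cell marker list have a row in the tables. They summed to 1348 to 1560 CPM at DC 8 h and 1031 to 1324 CPM at DC 22 h, against 590 to 747 CPM at IF 8 h and 632 to 892 CPM at IF 22 h. Unstimulated cells, which had met no added DC, held 985 to 1923 CPM. Between 24 and 27 of the 27 had counts in the DC libraries, and between 17 and 27 in the others. The sums thus separate DC from IF at each time, but not DC from no stimulus. Of the 1324 CPM at DC 22 h replicate 2, 519 CPM were Irf8, a gene taken up below. Fscn1, the actin bundler of mature dendritic cells, did separate them: it held 168, 132 and 126 CPM at DC 8 h and 94.8, 87.6 and 72.9 CPM at DC 22 h. It held at most 6.75 CPM without stimulus, at most 0.663 CPM at IF 8 h, and 5.83, 21.5 and 43.8 CPM at IF 22 h. Zbtb46, a transcription factor of conventional dendritic cells, was at 0 in all unstimulated and IF 8 h libraries and at 1.17 to 2.28 CPM at DC 8 h. At 22 h its libraries were closer, at 0.442 to 0.684 CPM with DC and 0.120 to 0.408 CPM with IF. Itgax, which encodes the integrin CD11c, ran the other way, at 3.82 to 6.93 CPM with DC and 11.1 to 15.3 CPM with IF at 8 h. At 22 h it held 2.05 to 7.69 CPM with DC and was higher in every IF library, up to 31.8 CPM. Ccl22, a chemokine of mature dendritic cells, held 18.2, 14.4 and 10.3 CPM at DC 8 h. Replicate 2, the highest for 4 of the 5 genes, was the middle library for Fscn1 in both DC groups and for Ccl22 at 8 h, and the highest for Ccl22 at 22 h, at 11.1 CPM. Irf8, a factor of dendritic cells that activated T cells also make, did follow replicate 2, with 74.4, 262 and 60.2 CPM at DC 8 h and 46.7, 519 and 27.3 CPM at DC 22 h. Whether RNA of dendritic cells contributes to the 5 genes was not tested.

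**Figure D4:**
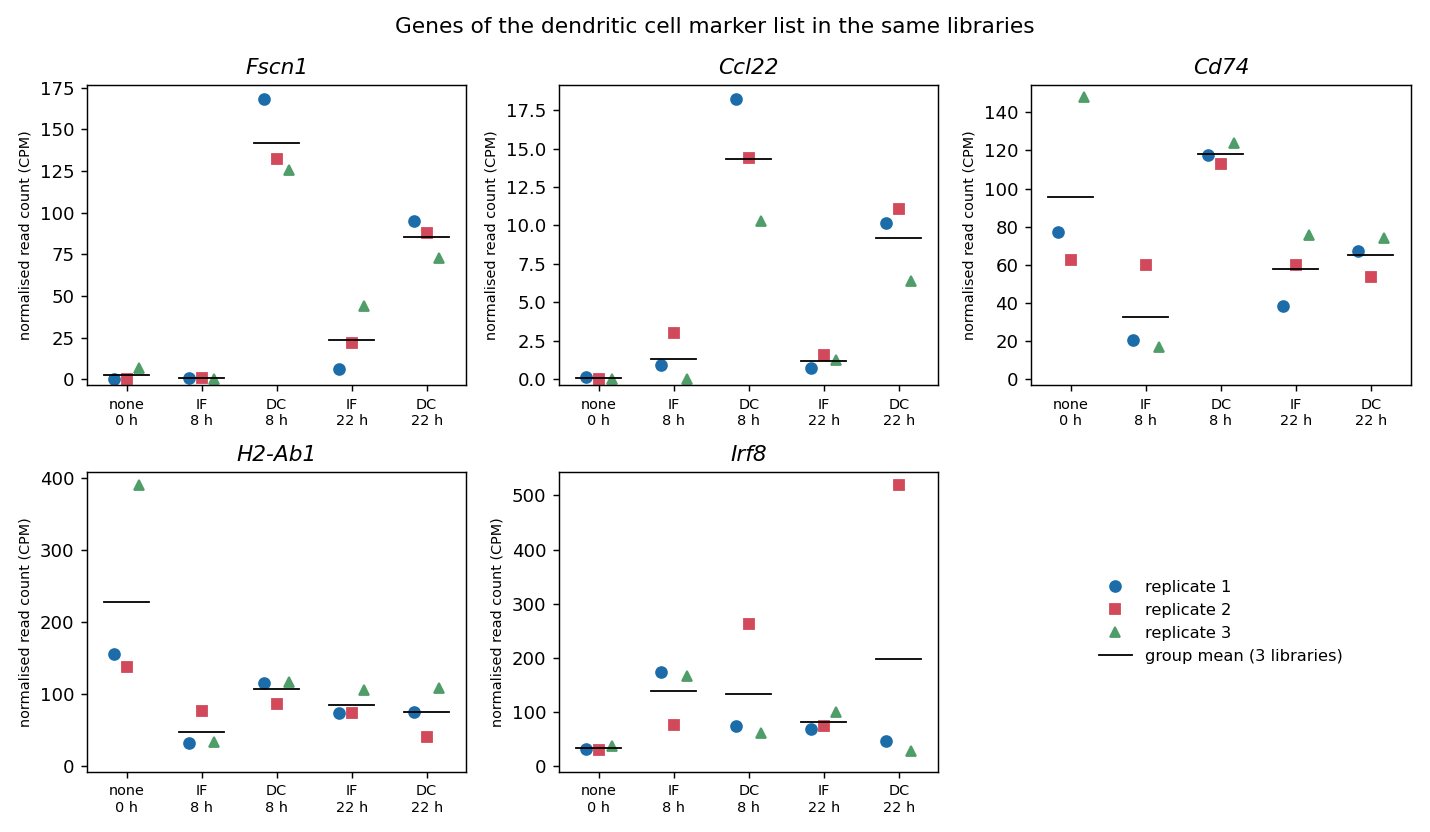
Normalised read count in CPM (vertical axes, each gene on its own scale) of 5 genes of the dendritic cell marker list in every library, with symbols for replicates and lines at group means. Fscn1 and Ccl22 are highest with DC, Cd74 and H2-Ab1 are also present in unstimulated cells, and Irf8 is highest in DC 22 h replicate 2 at 519 CPM.

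The genes whose levels tracked each member most closely were taken by Pearson's r of log2 CPM over the 15 libraries, among 8264 genes. Libraries of 1 group share a stimulus, so r reflects the group pattern and carries no p. Lad1 was most like Nfkb2, a subunit of NF-kB (r = 0.943), and after it Sdhaf1 (0.923) and Ly6a, a surface antigen of activated T cells (0.915). Nfkb2 held 70.5 ± 22.3 CPM without stimulus, 187 ± 15.2 after 8 h of IF and 271 ± 40.1 after 8 h of DC (SD, n = 3 each). After 22 h it held 84.7 ± 4.70 CPM with IF and 196 ± 24.7 CPM with DC (SD, n = 3 each). It repeated the order of Lad1, with a narrower range. Serpine2 was most like the transcriptional repressor Hic1 (0.949), then Atp13a3 (0.907) and the mitotic kinase Nek6 (0.902). Hic1 held 175 ± 150 CPM at DC 8 h and 224 ± 180 CPM at DC 22 h (SD, n = 3). Its highest DC library was replicate 2 at both times, as for Serpine2. Cables1 was most like Ctla4, an inhibitory receptor of activated T cells (0.929), then Tnip3 (0.919) and Plagl2 (0.916). Ctla4 held 3.39 ± 0.701 CPM without stimulus and between 8.87 and 18.1 CPM as the mean of each stimulated group. Utf1 was most like the RNase Zc3h12d (0.941), the costimulatory receptor Tnfrsf9 (0.927) and St6galnac3 (0.913). Tnfrsf9 held 4.88 ± 1.33 CPM without stimulus and 173 ± 47.4 CPM at IF 8 h (SD, n = 3). Syt6 had the loosest matches, the cytidine deaminase Apobec3 (0.913), Ncf1, a subunit of the phagocyte oxidase (0.860), and Elovl6 (0.837). Apobec3 and Ncf1 were already present in unstimulated cells, at 81.7 ± 6.04 and 39.1 ± 10.2 CPM (SD, n = 3), where Syt6 had no count. Among the 5 genes themselves r ran from 0.428 for Syt6 with Utf1 to 0.814 for Lad1 with Cables1.

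**Figure D5:**
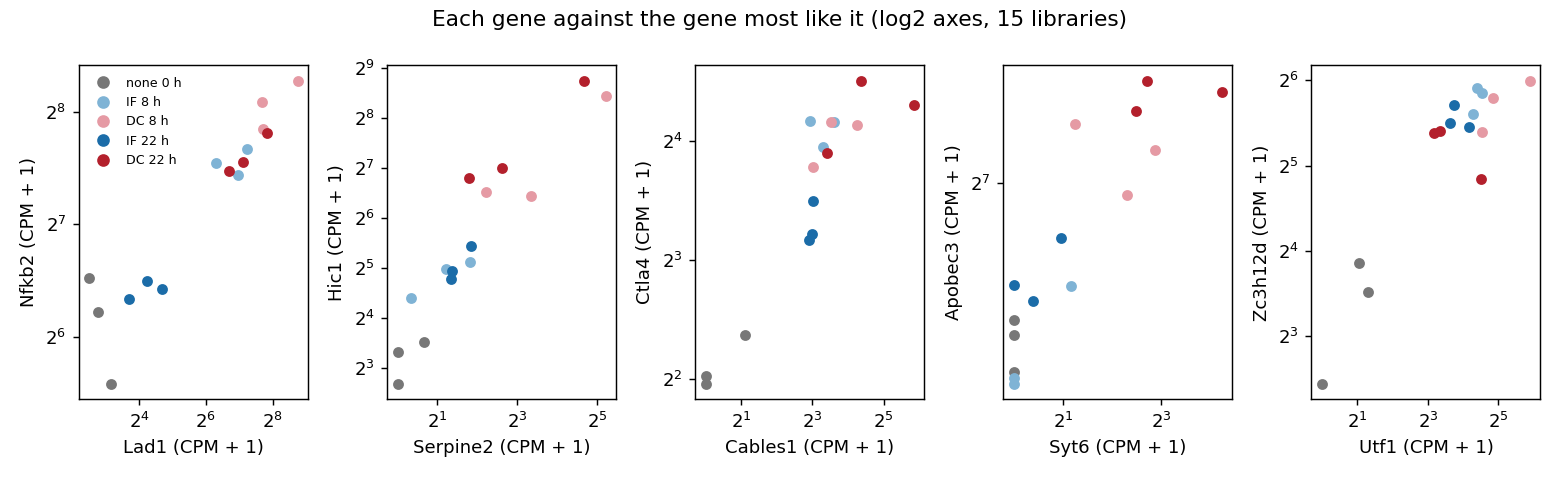
Each of the 5 genes (horizontal axes) against the gene most like it (vertical axes), as CPM + 1 on log2 axes, with 1 point for each of 15 libraries coloured by group. The unstimulated libraries lie at or near the left of every panel, beside 3 IF libraries without a Syt6 count, and Pearson's r runs from 0.913 for Syt6 with Apobec3 to 0.949 for Serpine2 with Hic1.

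Relatives of the 5 genes were read in the same comparisons. Of 32 calls made for genes of these lists, 19 were lost without at least 1 library, 16 under at least 1 other alternative, and 11 held under all that were tried. Of 30 serpin genes other than Serpine2 in the tables, 7 were abundant enough to test. Against no stimulus, IF had 0 higher and 1 lower at 8 h, and 2 higher and 1 lower at 22 h. DC had 1 higher and 0 lower at each time. Serpinb9, the inhibitor of granzyme B, was called higher at DC 8 h than without stimulus, at 65.8 ± 14.5 against 25.9 ± 2.85 CPM (SD, n = 3; adjusted p = 0.0110 by edgeR). The call was lost without DC 8 h replicate 2 or unstimulated replicate 3, with adjusted p up to 0.0567. No serpin was called between IF and DC at either time, by edgeR or DESeq2, while 1 of 7 at 8 h and 2 of 7 at 22 h had an unadjusted p under 0.05 in edgeR. Over the 7, the median log2 difference of IF minus DC was -0.52 at 8 h and -0.36 at 22 h, beside -0.01 and -0.02 over all genes. Of 12 proteases and receptors that Serpine2 acts on or with, 6 were tested and none was called in any of 8 comparisons by edgeR or DESeq2, with at most 2 at an unadjusted p under 0.05.

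Of 17 other synaptotagmin genes, 6 were tested. Esyt1, an extended synaptotagmin of membrane contact sites, was lower than without stimulus in all 4 stimulated groups, for example at 142 ± 26.4 against 283 ± 5.22 CPM at DC 8 h (SD, n = 3; adjusted p = 0.00132 by edgeR). Its fall at IF 22 h, the smallest of the 4, was lost without IF 22 h replicate 1 or 2 or any unstimulated library (adjusted p up to 0.140), and also with library size alone, without the low-count filter, and without IF 22 h replicates 2 and 3 together (adjusted p up to 0.136). Between IF and DC at 22 h 1 of the 6, Sytl2, was called, higher with IF at 7.62 ± 1.64 against 2.06 ± 0.593 CPM (SD, n = 3; adjusted p = 0.0356 by edgeR), and the call was lost without IF 22 h replicate 2 or 3 or any DC 22 h library (adjusted p up to 0.165). It was lost as well with library size alone, with only the groups compared, without both DC replicates 2, and without IF 22 h replicates 2 and 3 together (adjusted p up to 0.465). Among 25 tested genes of regulated exocytosis, 1 was called higher and 1 lower than without stimulus in 3 of the stimulated groups, and 2 higher and 1 lower at IF 22 h. Stx11, a syntaxin that cytotoxic granule release needs, was higher at DC 8 h, at 19.7 ± 6.94 against 2.24 ± 2.28 CPM (SD, n = 3; adjusted p = 0.00673 by edgeR). Rab3d, a GTPase of secretory granules, was lower there, at 1.71 ± 0.303 against 8.67 ± 0.807 CPM (adjusted p = 0.00678 by edgeR). None of the 25 was called between IF and DC by edgeR, where 1 at 8 h and 2 at 22 h had an unadjusted p under 0.05 and DESeq2 called 1 lower with IF at 22 h.

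Of 18 partners of Cables1 and cyclin kinase genes, 16 were tested. None was called lower than without stimulus, while DC raised 2 at 8 h and 1 at 22 h, and IF raised 1 at 8 h and 0 at 22 h by edgeR, where 2 had an unadjusted p under 0.05 and DESeq2 called 1 higher. DESeq2 called 1 lower at IF 8 h. Cdkn1a, which encodes the cell cycle inhibitor p21, was the one called most often. It held 3.11 ± 2.31 CPM without stimulus and 88.6 ± 69.4 CPM at DC 8 h (SD, n = 3), a log2 difference of 4.91 ± 0.61 (SE) with adjusted p = 0.000130 by edgeR, and the call held without each library. In single libraries it held 51.1, 169 and 46.1 CPM at DC 8 h, with replicate 2 the highest, but at DC 22 h it held 17.4, 14.9 and 8.55 CPM, with replicate 1 the highest. At IF 8 h it held 12.7 ± 5.76 CPM, below DC 8 h (adjusted p = 0.0187 by edgeR), a call lost without DC 8 h replicate 2 or IF 8 h replicate 1 or 2 (adjusted p up to 0.118), and without both DC replicates 2. Its calls against no stimulus at IF 8 h and DC 22 h were lost in 5 of 6 and 4 of 6 fits without 1 library, with adjusted p up to 0.172 and 0.122, and the second also with only the groups compared (adjusted p = 0.0516). From DC 8 h to DC 22 h edgeR called Cdkn1a lower and Ccne1, a cyclin of entry into DNA replication, higher, and those calls were lost in 4 of 6 and 5 of 6 such fits (adjusted p up to 0.118 and 0.184). Both were also lost with only the groups compared and without both DC replicates 2 (adjusted p up to 0.222 and 0.249). Cables2, the closest relative of Cables1, was higher at DC 8 h, at 29.7 ± 2.81 against 15.2 ± 2.68 CPM (adjusted p = 0.0202 by edgeR). That call was lost without DC 8 h replicate 3 or unstimulated replicate 1 or 2 (adjusted p up to 0.0954). In the comparison of both stimuli at 22 h none of the 16 was called by edgeR or DESeq2. Of these 16, 3 had an unadjusted p under 0.05 in edgeR, and Cables1 itself was not tested there.

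Epithelial anchoring genes beside Lad1 gave no call: 7 of 19 were tested, and none passed in any of 8 comparisons by edgeR or DESeq2, with at most 3 at an unadjusted p under 0.05. Of 21 pluripotency genes beside Utf1, 4 were tested. Klf4, which also keeps resting T cells out of cycle, was called lower in all 4 stimulated groups, from 17.2 ± 1.55 CPM without stimulus to 0.111 ± 0.191 CPM at IF 8 h and 1.45 ± 0.875 CPM at DC 22 h (SD, n = 3; adjusted p = 0.000107 and 0.00193 by edgeR). Its call at IF 22 h was lost without replicates 2 and 3 of that group together (adjusted p = 0.103). The other three tested genes of that list were called in no comparison by edgeR or DESeq2, and at most 1 of the 4 had an unadjusted p under 0.05 in each comparison. Counts of called genes in these lists are read beside the shares of all genes given above, which lie between 0.231% and 4.72%.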

How the data were processed

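The deposited tables hold raw counts per gene for each library, as whole numbers without normalization. Per the labels' protocols, the authors sorted the cells, extracted RNA with TRIzol and made libraries by an adapted form of CEL-seq, a method that generally reads the 3′ ends of transcripts. BWA and the build mm10 are named, per the submitters' processing notes, without a role. The annotation, the counting program, and the use of strand and molecular identifiers are not given in the sources used here, so limits from counts cover counting error only.

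The software was R 4.3.3, edgeR 4.0.16 with limma 3.58.1. The filter filterByExpr (minimum count 10, minimum total 15) kept 10831 of 17493 genes, of which 370 had no count at all. All 15 libraries, scaled by TMM, entered 1 quasi-likelihood fit with a mean for each of 5 groups. P-values are two-sided and adjusted by Benjamini-Hochberg over all genes tested and a threshold of 0.05. Log2 fold changes used a prior count of 0.125, and log2 CPM for likeness a prior count of 2. Limits for a count of 0 used 3 counts. Libraries of 1 group differed by more than counting noise (chi-square per degree of freedom from 9.95 to 105), so none looked like a library deposited again, and this does not show that they are independent.

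The 5 genes, the gene lists and the motifs were chosen with earlier results of these data known. Genes other than the members are named by rule: the 3 most like each member among genes with a mean of at least 5 CPM, up to 3 called genes of each family list with the smallest p in a comparison, and defining cell type markers. Irf8, of the dendritic cell list, was singled out after its values were seen. Replicate numbers come from the titles. Over 10 pairs of groups, deviations from the group means correlated above 0.1 at every number only between DC 8 h and DC 22 h (r from 0.116 to 0.399). Unstimulated cells and DC 8 h were also positive at every number, at 0.025 to 0.067. By the 0.1 threshold the numbers were taken to pair DC 8 h and DC 22 h from the data, not from the design. Gene positions are from GENCODE on GRCm38. Alternatives were DESeq2 1.42.0, other scaling, no filter, only the groups compared, a replicate block, another prior count and leaving out libraries.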

Additional observations from a re-analysis of the deposited data

How the results depend on the processing

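The lower Lad1 at IF 22 h than at DC 22 h kept its direction and its call under all 15 alternatives, with log2 differences from -3.70 to -2.71. Its fall from IF 8 h to IF 22 h kept its call in 13 of 14, and without IF 22 h replicates 2 and 3 together it was -3.30 (adjusted p = 0.268, with 1 library left, assumed to vary like the other groups). Syt6 at DC 8 h against no stimulus is a fitted value against a group at 0 and depends on the prior count: it was 7.95 in edgeR, 4.04 with a prior count of 2 and 6.84 in DESeq2. It ranged from 7.44 to 8.36 without each library, and missed the threshold without any unstimulated library, beside the limit from the filter. Utf1 from DC 8 h to DC 22 h gained a call without the low-count filter (-1.48, adjusted p = 0.00173) and with the replicate block in the DC libraries alone (-1.50, adjusted p = 0.0116). With the replicate block in all 15 libraries it was -1.49 (adjusted p = 0.203). The replicate block changed no other call of the 5 genes. Utf1 between IF and DC at 22 h turned to -0.051 with library size alone and to -0.061 without IF 22 h replicates 2 and 3, and ran from -0.17 to 0.67 without each library. Cables1 between IF and DC at 8 h turned to 0.013 without both DC replicates 2, an alternative chosen after seeing the data like the DC block, and ran from -0.72 to 0.0043 without each library. Serpine2 from IF 8 h to IF 22 h ran from -0.046 to 1.34 without each library. Of the log2 differences given without a test, 390 of 420 alternatives stayed within the replicate spread and 3 reversed: Serpine2 from DC 8 h to DC 22 h (from -2.08 to 0.72 without each library) and Syt6 from IF 8 h to IF 22 h (from -1.34 to 4.78, with 2 of 6 above 0). The other 27 that moved include Cables1 and Serpine2 against no stimulus without the only unstimulated library that held counts of the gene, which gave 9.17 and 6.55 at IF 8 h.

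Counts of called genes moved more. DESeq2 called 203 genes against 52 from DC 8 h to DC 22 h, 1157 against 739 for DC 8 h against no stimulus, 549 against 263 between IF and DC at 22 h, 339 against 121 from IF 8 h to IF 22 h, 1040 against 658 for IF 22 h against no stimulus and 184 against 72 between IF and DC at 8 h. Without the filter, in the same order, 251, 1129, 706, 502, 1101 and 215 were called, and 1278 against 840 for DC 22 h against no stimulus, where library size alone gave 1586. With only the groups compared, 0 genes passed from DC 8 h to DC 22 h, 517 for DC 22 h and 993 for IF 22 h against no stimulus, 70 and 47 between IF and DC at 22 h and 8 h, and 1299 against 840 for IF 8 h against no stimulus. From DC 8 h to DC 22 h, 166 passed with the DC block and 19 without both DC replicates 2. Without IF 22 h replicates 2 and 3, 8 passed between IF and DC at 22 h, 0 from IF 8 h to IF 22 h and 99 for IF 22 h against no stimulus. Leaving out each library gave 1 to 138 from DC 8 h to DC 22 h, 454 to 984 for DC 22 h, 404 to 665 for DC 8 h, 283 to 947 for IF 22 h and 419 to 573 for IF 8 h against no stimulus, 90 to 759 and 27 to 52 between IF and DC at 22 h and 8 h, and 24 to 541 from IF 8 h to IF 22 h. The cause was not tested. Scaling by library size alone moved the median log2 difference of all genes against no stimulus to between 0.22 and 0.37, from at most 0.04.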
